A study of Mus musculus with 35 samples.

Results

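Podocytes of mice with 1 mutant Lmx1b allele were compared between bortezomib, an inhibitor of the proteasome, and its solvent DMSO. The comparison rested on 11 of the 35 mice of the series, 5 given bortezomib (Btz mice) and 6 given DMSO (DMSO mice), and on 10814 of 33292 genes, those above 1 TPM (reads scaled by gene length and by library) in all 6 DMSO mice, in all 5 Btz mice, or in both. All 11 mice carried the allele pair Lmx1b C118F/lox with a doxycycline-dependent rtTA transgene that is active in podocytes, tetO::Cre and the reporter mTmG, were 7 to 10 weeks old and received 2 mg/ml doxycycline in the drinking water for 7 days. Doxycycline switched on Cre recombinase in podocytes to remove the floxed allele and leave the allele carrying the C118F substitution. The same Cre activated the membrane-bound EGFP by which the cells were sorted. Bortezomib was injected intraperitoneally every other day from the start of doxycycline at 0.3 µg per g body weight. RNA of the sorted green cells was sequenced on day 7. The other 24 mice, with the alleles Lmx1b H77L/lox or Lmx1b +/lox (labelled WT and taken as the control genotype), went through the same protocol and served here for levels and for the comparison of responses. Podocytes that had escaped recombination of the reporter were not green and were not sequenced, and each library came from 1 mouse. Green color reports the reporter alone, and removal of the floxed Lmx1b allele in the sorted cells was not tested here. Mice are numbered within each group in the order of their records, and the numbers pair no mice.

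Podocytes are the epithelial cells that wrap the glomerular capillaries and form the slit diaphragm with interdigitating foot processes. LMX1B is a LIM-homeodomain transcription factor needed to keep podocytes differentiated, and mutations in its zinc-binding LIM domains cause nail-patella syndrome. The proteasome degrades ubiquitin-tagged proteins; under interferon, its catalytic subunits are exchanged for the immunoproteasome subunits Psmb8, Psmb9 and Psmb10, whose peptides are loaded on MHC class I molecules. Interferons signal through transcription factors that include STAT2 and IRF9, and the genes they induce carry interferon-stimulated response elements, short repeats of GAAA, in their promoters.

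No gene passed the test between Btz and DMSO mice. Of the 10814 genes tested with limma on log2(TPM + 1), 0 (0%) had an adjusted p under 0.05, with a lowest adjusted p of 0.164, while 634 had an unadjusted p under 0.05 (280 lower in Btz mice, 2.59%, and 354 higher, 3.27%). When the same contrast took its error from all 35 mice, 24 genes (0.222%) were called lower and 7 (0.0647%) higher. Of these 31, 20 belonged to the interferon, MHC class I or immunoproteasome lists, which held 40, 17 and 5 of the tested genes. That fit assumes an equal spread in all 6 groups. Its SE and p can therefore be too small for genes with a wide spread among the C118F DMSO mice, as many interferon-induced genes had. The SD between mice was larger under DMSO for 68.8% of the tested genes, and its part in the lack of calls was not tested. Log2 fold changes are Btz minus DMSO and are given ± SE, with n = 5 and n = 6 mice.

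The libraries held podocyte RNA, and markers of most other glomerular and tubular cells were highest in 2 DMSO mice. Nphs1, which encodes nephrin of the slit diaphragm, ranged from 113 to 169 TPM (median, 157) in DMSO mice and from 149.6 to 186 TPM (median, 161) in Btz mice, and Podxl, Wt1 and Synpo were present in all 11. Ptprc, which marks leukocytes, did not exceed 0.133 TPM in any mouse. Cd68, also a leukocyte marker, ranged from 2.37 to 15.1 TPM in DMSO mice and from 1.04 to 8.49 TPM in Btz mice. Lyz2 reached 4.24 TPM in DMSO and 1.79 TPM in Btz mice, and Cd74 85.4 and 4.93 TPM. The 12 endothelial markers summed to 233 TPM in DMSO mouse 1 and 63.7 in DMSO mouse 4, against 18.7 to 31.6 in the other 4 DMSO mice and 13.9 to 28.7 in Btz mice. DMSO mouse 1 also had the highest sums of leukocyte markers (194 TPM, 23 genes of which 4 were at 0 in all 11 mice) and of mesangial and pericyte markers (2892 TPM, 11 genes), and DMSO mouse 4 those of proximal tubule (258 TPM, 12 genes), distal tubule and collecting duct (93.9 TPM, 8 genes) and erythroid markers (33.4 TPM, 5 genes). In Btz mice these sums reached 38.9, 908, 53.9, 8.92 and 1.3 TPM, in the same order. The mesangial and pericyte sum was at least 645 TPM in every DMSO mouse and at least 525 TPM in every Btz mouse. Under DMSO it was 41.7 to 147 TPM in control podocytes and 612 to 985 TPM in H77L podocytes. Whether this RNA came from podocytes or from other cells was not tested. In these sums, fewer cells of a type and less RNA per cell cannot be told apart. Xist was at 8.46 to 22.7 TPM in all 11 mice and the Y-linked genes Ddx3y and Kdm5d at or near 0. TPM values give no depth, but the steps in which they rise at low values put Btz mouse 2 at 27.5% of the median depth of the 11 mice and the other 10 at 75.1% to 125%.

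Lmx1b itself (chromosome 2, 33450977 to 33531093, GRCm39) had 37.4, 108, 109, 67.7, 100.3 and 185 TPM in DMSO mice 1 to 6 and 67.5, 128, 123, 152 and 145 TPM in Btz mice 1 to 5. The groups overlapped, and the difference of 0.38 ± 0.33 on the log2 scale was no larger than the spread between mice (limma, adjusted p = 0.825; two-sided exact permutation test over 462 assignments, p = 0.381). It changed sign without DMSO mice 1 and 4, in which markers of most other cells were highest (log2 fold change -0.033). Reads from the mutant allele and from any remaining floxed allele were counted together, so the value does not report recombination. In podocytes of DMSO-treated control mice Lmx1b ranged from 44.8 to 89.7 TPM (median, 71.5).

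Genes induced by interferon were lower in Btz mice than in DMSO mice almost throughout. Of the 62 genes of the list, 61 were detected and 40 tested, and 39 of these 40 had a lower mean in Btz mice, where 37.4% of all tested genes did, 27 of them with an unadjusted p under 0.05 (background, 2.59%). Their median log2 fold change was -1.50, against 0.06 over all tested genes, and 0 passed the adjusted threshold. Of the 40, 9 were above 1 TPM in every DMSO mouse but not in every Btz mouse, so they were tested because of the group in which they were high; Usp18, Ifi27l2a, Irf7, Tgtp2 and Rtp4 are among them. Among the 31 members above 1 TPM in all 11 mice, 30 had a lower mean, 20 with an unadjusted p under 0.05, and the median was -1.20; of the 10170 genes above 1 TPM in all 11 mice, 222 were lower with an unadjusted p under 0.05. Among all 61 detected members, tested or not, 60 had a lower mean, with a median of -1.06. With the error taken from all 35 mice, 15 of the 40 were called lower, where 0.222% of all tested genes were. These 15 include Usp18 and Irf7, which are among the 9 tested because of the DMSO mice, so the count is a description only. For 7 of the 40 every Btz mouse lay below every DMSO mouse, where this held for 0.222% of all tested genes, and for 6 of the 31 above 1 TPM in all 11 mice, where it held for 20 of the 10170.

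**Figure D1:**
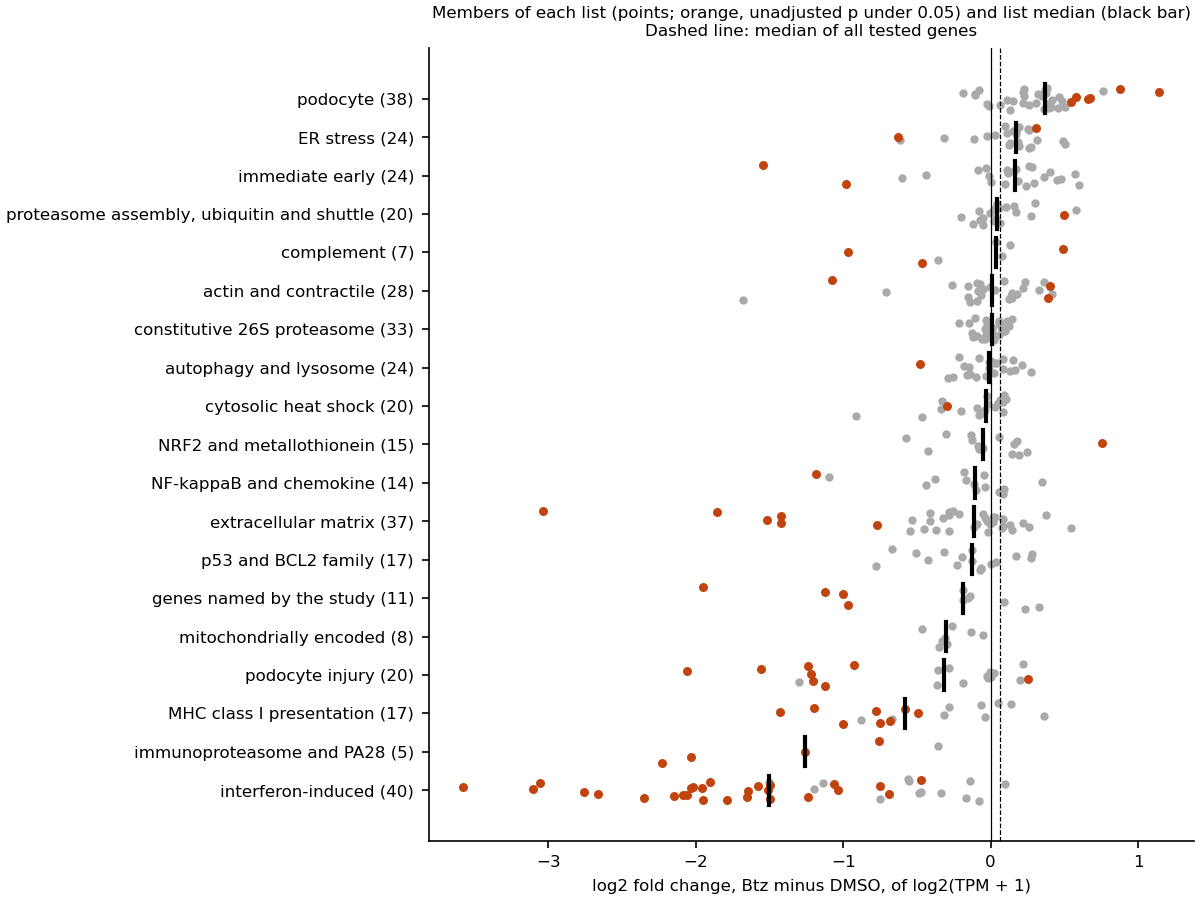
Log2 fold change (Btz minus DMSO, x axis) of the tested members of each gene list with at least 5 of them (rows, number of members in parentheses). Each point is a gene, orange where the unadjusted p was under 0.05, black bars are list medians and the dashed line is the median of all tested genes at 0.06; the interferon-induced list has the lowest median, -1.50, and the podocyte list the highest, 0.37.

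The genes with the smallest p of this list were Lgals3bp, Ifi27l2a, Usp18 and Xaf1, and Isg15 and Ifi27 followed. Lgals3bp, a secreted galectin-binding glycoprotein, had 108, 64.5, 37.3, 35, 78.9 and 93.8 TPM in DMSO mice 1 to 6 and 21.2, 23.3, 10.1, 10.6 and 21.7 TPM in Btz mice 1 to 5. Every Btz mouse was below every DMSO mouse (-1.90 ± 0.32, adjusted p = 0.164; exact permutation p = 0.00216, the smallest the design allows). Control podocytes under DMSO had 9.47 to 18.2 TPM (median, 14.3) for this gene, a range in which 2 of the 5 Btz mice and none of the DMSO mice lay. Usp18, which removes ISG15 from proteins and dampens the type I interferon receptor, had 26.1, 5.45, 5.94, 4.89, 16.6 and 6.4 TPM in DMSO mice and 2.02, 0.978, 0.846, 2.64 and 0.717 TPM in Btz mice. The groups were apart, with DMSO mice 1 and 5 far above the other 4 and a log2 difference of -2.08 ± 0.40. Usp18 and Ifi27l2a were tested because of the DMSO mice alone, so their separation and their p are a description only. Isg15, the ubiquitin-like modifier itself, was likewise highest in DMSO mice 1 and 5, with 181, 25.9, 23.6, 31.4, 107 and 36.1 TPM under DMSO and 5.65, 8.74, 11.2, 11.4 and 17.6 TPM under bortezomib and no overlap, a difference of -2.15 ± 0.48 (adjusted p = 0.492). Ifi27l2a, a mitochondrial protein of the interferon response, had 31.6, 12.4, 3.01, 7.79, 16.1 and 26.1 TPM in DMSO mice and 3.58, 1.47, 1.13, 0 and 1.08 TPM in Btz mice, and only DMSO mouse 3 reached into the range of the Btz mice. Ifi27 was high in all 11 mice, 386 to 708 TPM (median, 476) under DMSO and 258 to 341 TPM (median, 325) under bortezomib, with no overlap (-0.69 ± 0.15, adjusted p = 0.435). Xaf1, a proapoptotic interferon-induced protein, differed (-1.65 ± 0.34, adjusted p = 0.4), with Btz mouse 1 at 13.3 TPM just above DMSO mouse 3 at 13 TPM. In the fit of all 35 mice Lgals3bp, Isg15, Ifi27 and Xaf1 had an adjusted p of 0.00899 and Usp18 one of 0.0136, while Ifi27l2a had 0.0977.

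The promoters of Usp18, Isg15, Ifi27 and Lgals3bp are shown because these genes were lower together and differ in how often they carry the letters of the interferon-stimulated response element. Each runs from 250 bases before to 50 bases after the start of the canonical GENCODE vM39 transcript, 5′ to 3′ on the strand of the gene, read from GRCm39, and capitals mark every match to GAAANNGAAA or to its reverse complement TTTCNNTTTC, overlapping matches included. Usp18 lies on the plus strand at chr6:121222607-121222906, Isg15 on the minus strand at chr4:156285254-156285553, Ifi27 on the plus strand at chr12:103400167-103400466 and Lgals3bp on the minus strand at chr11:118292869-118293168.
Usp18: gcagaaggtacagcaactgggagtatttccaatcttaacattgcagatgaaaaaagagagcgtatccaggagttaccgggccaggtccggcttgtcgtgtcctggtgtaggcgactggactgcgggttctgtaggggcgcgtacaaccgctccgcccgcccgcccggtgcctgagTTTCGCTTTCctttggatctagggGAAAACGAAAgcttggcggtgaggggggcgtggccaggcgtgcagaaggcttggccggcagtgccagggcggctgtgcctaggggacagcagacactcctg
Isg15: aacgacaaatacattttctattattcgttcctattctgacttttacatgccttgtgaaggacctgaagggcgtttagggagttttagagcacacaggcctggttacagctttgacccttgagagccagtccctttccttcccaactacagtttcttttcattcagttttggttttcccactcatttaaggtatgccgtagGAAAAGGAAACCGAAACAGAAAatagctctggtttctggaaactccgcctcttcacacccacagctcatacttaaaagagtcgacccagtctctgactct
Ifi27: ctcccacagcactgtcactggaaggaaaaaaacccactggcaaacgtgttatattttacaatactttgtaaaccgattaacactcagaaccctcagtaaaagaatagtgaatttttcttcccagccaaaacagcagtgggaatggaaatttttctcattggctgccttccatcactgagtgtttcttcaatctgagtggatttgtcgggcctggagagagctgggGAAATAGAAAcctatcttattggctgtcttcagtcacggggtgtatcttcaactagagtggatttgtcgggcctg
Lgals3bp: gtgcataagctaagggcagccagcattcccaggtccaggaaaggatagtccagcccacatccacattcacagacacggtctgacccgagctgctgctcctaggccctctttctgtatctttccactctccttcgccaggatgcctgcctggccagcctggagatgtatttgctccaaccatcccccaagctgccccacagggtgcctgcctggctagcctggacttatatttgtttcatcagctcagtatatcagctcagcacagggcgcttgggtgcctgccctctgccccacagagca
The Isg15 promoter held 3 overlapping matches beginning 50, 44 and 38 bases before the start site, that of Usp18 held 2 at 75 and 51 bases, that of Ifi27 held 1 at 25 bases and that of Lgals3bp held 0. Over the 40 tested interferon-induced genes, 19 promoters (47.5%) held at least 1 match, against 352 of 10803 promoters of all tested genes (3.26%), 2 of 17 in the MHC class I list, 5 of 33 in the constitutive proteasome list, 3 of 38 in the podocyte list and 0 of 5 in the immunoproteasome list. A match describes the letters of this window and no binding was measured.

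**Figure D2:**
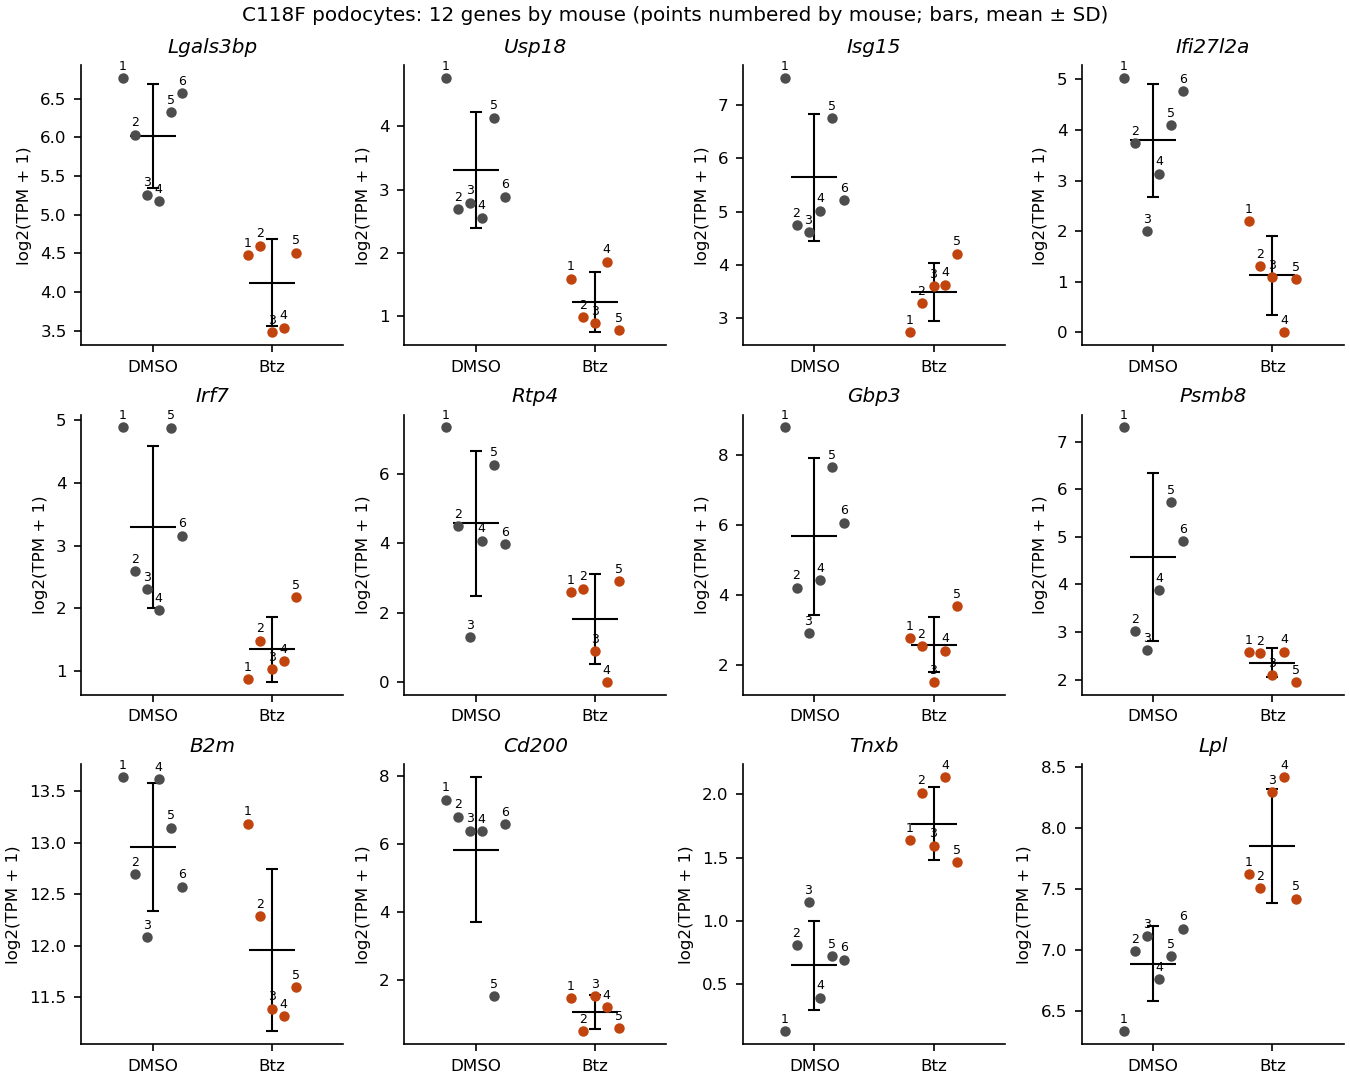
Level of 12 genes in each mouse, as log2(TPM + 1) on axes that differ between panels and do not start at 0, for DMSO mice 1 to 6 (grey) and Btz mice 1 to 5 (orange), with mean ± SD. Usp18, Isg15, Irf7, Rtp4, Gbp3 and Psmb8 are highest in DMSO mice 1 and 5, Cd200 is low in DMSO mouse 5 alone among the DMSO mice, and Tnxb and Lpl are higher in every Btz mouse than in every DMSO mouse.

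The transcription factors of the pathway differed among themselves. Irf7, which amplifies type I interferon production and was among the genes named by the study, had 28.4, 5.02, 3.94, 2.92, 28.4 and 7.93 TPM in DMSO mice and 0.833, 1.81, 1.04, 1.24 and 3.53 TPM in Btz mice. DMSO mice 1 and 5 stood far above the rest, and only DMSO mouse 4, at 2.92 TPM, was under the highest Btz mouse (-1.95 ± 0.52, adjusted p = 0.694; 0.0147 with all 35 mice). Irf7 was tested because of the DMSO mice alone, so its difference and both p are a description only. Irf9, the DNA-binding partner of STAT2, ranged from 12.8 to 82.2 TPM (median, 29.9) under DMSO and from 5.09 to 17.9 TPM (median, 9.25) under bortezomib (-1.79 ± 0.45, adjusted p = 0.694). Stat2 had a log2 fold change of -0.75 ± 0.46 (exact permutation p = 0.206), which was -1.03 without DMSO mouse 4 and -0.42 without DMSO mouse 5, and Btz mouse 5, at 18.3 TPM, was above 3 of the 6 DMSO mice. Irf1, another interferon regulatory factor, overlapped throughout, with 178 to 619 TPM (median, 372) under DMSO and 128 to 977 TPM (median, 350.4) under bortezomib.

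The effectors of the list, among them interferon-inducible GTPases and antiviral proteins, differed in how far they changed. Tgtp2, a T-cell-specific GTPase, had 637, 9.01, 1.74, 14.2, 201 and 23.1 TPM in DMSO mice and 1.75, 1.63, 0.446, 2.45 and 3.52 TPM in Btz mice. DMSO mouse 3 was level with the Btz mice while DMSO mice 1 and 5 were far above them, and a log2 difference of -3.58 ± 1.10 had an adjusted p of 0.784. Tgtp2 was tested because of the DMSO mice alone, so these values are a description only. Reads shared with its near-identical neighbour Tgtp1 make its level uncertain. Gbp3, a guanylate-binding protein, had 445, 17.5, 6.55, 20.6, 202 and 66.2 TPM under DMSO and 5.83, 4.81, 1.85, 4.32 and 11.8 TPM under bortezomib (-3.10 ± 0.87, adjusted p = 0.734; 0.0205 with all 35 mice). Igtp and Irgm2, both immunity-related GTPases, were highest in the same DMSO mice, with 990.4 and 757 TPM of Igtp in DMSO mice 1 and 5 against 31.5 to 51.6 TPM (median, 39.8) in Btz mice. Ifit1 and Ifit3, which bind foreign RNA, were lower (Ifit1, -2.35 ± 0.63, and Ifit3, -1.65 ± 0.50). Ifitm3, which blocks viral entry at membranes, reached 1626 TPM in DMSO mouse 1 and lay between 24.9 and 259 TPM in the other 5 DMSO mice, against 12.7, 17.1, 9.28, 7.62 and 58.8 TPM in Btz mice (-3.05 ± 0.85, adjusted p = 0.734). Rtp4, a Golgi chaperone induced by interferon, was lower (-2.76 ± 0.89). Other antiviral members, named after their values were seen, had smaller differences, with log2 fold changes of -0.17 for Ifit2, -0.14 for Samd9l, -0.47 for Rigi and -0.49 for Ifih1, and Eif2ak2, the double-stranded RNA-activated kinase, was the 1 tested member with a higher mean in Btz mice (0.10). Outside the list, DMSO mice 1 and 5 were also highest for Lgals9 and Il18bp. Lgals9, which encodes galectin-9, had 168, 72, 40.9, 39.3, 119.7 and 80.9 TPM in DMSO mice against 32.4, 22, 19, 25.9 and 25.2 TPM in Btz mice, with no overlap (-1.59 ± 0.33, adjusted p = 0.4; 0.0136 with all 35). Il18bp, which neutralizes interleukin-18, had 103, 1.7, 1.84, 3.25, 25.9 and 14.7 TPM against 1.64, 2.48, 0.78, 1.66 and 2.37 TPM.

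Antigen presentation was lower in a smaller measure. Of the 18 MHC class I genes, 17 were tested and 14 had a lower mean in Btz mice (background, 37.4%), 8 of them with an unadjusted p under 0.05 (background, 2.59%) and 0 past the adjusted threshold, with a median of -0.58. With the level of Xist as a covariate the 8 became 4. B2m, the invariant light chain of MHC class I and a gene named by the study, had 12738, 6635, 4339, 12539, 9053 and 6083 TPM in DMSO mice and 9307, 4989, 2678, 2544 and 3099 TPM in Btz mice. Btz mice 1 and 2 overlapped with the DMSO mice and Btz mice 3, 4 and 5 lay below all of them (log2 fold change -1.0 ± 0.37, adjusted p = 0.813; exact permutation p = 0.0476). All 11 mice stood above the 1225 to 1857 TPM (median, 1533) of DMSO-treated control podocytes. H2-K1, a classical heavy chain whose reads may be shared with related H2 genes, was lower (-0.75 ± 0.22). Tapbp, the tapasin that loads peptides, had 1287, 905, 779, 820.1, 993 and 988 TPM under DMSO and 711, 724, 533, 586 and 640.3 TPM under bortezomib, with no overlap (-0.58 ± 0.14, adjusted p = 0.645; 0.0144 with all 35 mice), and its relative Tapbpl was lower (-1.20 ± 0.33). Tap1, which carries peptides into the endoplasmic reticulum, was at 96.6 and 104 TPM in DMSO mice 1 and 5 and between 14.9 and 29.6 TPM in the other 4. Cd274, which encodes the checkpoint ligand PD-L1, reached 215 TPM in DMSO mouse 5 and 153 TPM in DMSO mouse 1, and the other 4 DMSO mice, with 4.85 to 30.7 TPM, overlapped with the Btz mice at 5.65 to 19.2 TPM (median, 8.04). Cd74, the MHC class II invariant chain and a marker of leukocytes, was at 85.4 TPM in DMSO mouse 1, at 24.1 TPM in DMSO mouse 4 and at most 4.93 TPM in Btz mice; its part in the differences was not tested.

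The drug target itself showed 2 different patterns. The 5 genes of the immunoproteasome and its PA28 activator all had a lower mean in Btz mice (background, 37.4%), 4 of them with an unadjusted p under 0.05 (background, 2.59%), and their median was -1.26. Psmb9, an exchanged catalytic subunit, had 116, 15.3, 8.68, 25.3, 77 and 25.9 TPM in DMSO mice and 9.36, 6.71, 3.3, 9.37 and 6.83 TPM in Btz mice (-2.03 ± 0.54, adjusted p = 0.694; 0.013 with all 35). Psmb8 had 156, 7.07, 5.13, 13.7, 52.2 and 29.1 TPM under DMSO and 4.95, 4.84, 3.26, 5 and 2.86 TPM under bortezomib with a narrow gap between the groups (-2.23 ± 0.67, adjusted p = 0.784; 0.037 with all 35). Psmb10 was lower (-1.26 ± 0.39) as was Psme2, a PA28 subunit (-0.76 ± 0.27). In contrast, of the 33 constitutive 26S proteasome genes 17 had a higher and 16 a lower mean (background, 37.4% lower), 0 had an unadjusted p under 0.05, and the log2 fold changes lay between -0.22 and 0.14 with a median of 0.01. Among 20 tested genes for proteasome assembly, ubiquitin and shuttling, the median was 0.04. Ddi2, the protease that activates NRF1 when proteasomes are inhibited, was the 1 gene with an unadjusted p under 0.05 (0.50 ± 0.23, adjusted p = 0.813). Over all tested genes, 5.86% had such a p in either direction. Nfe2l1, which encodes NRF1, the factor that drives proteasome genes under inhibition, had a log2 fold change of 0.28 ± 0.14 (adjusted p = 0.813).

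**Figure D3:**
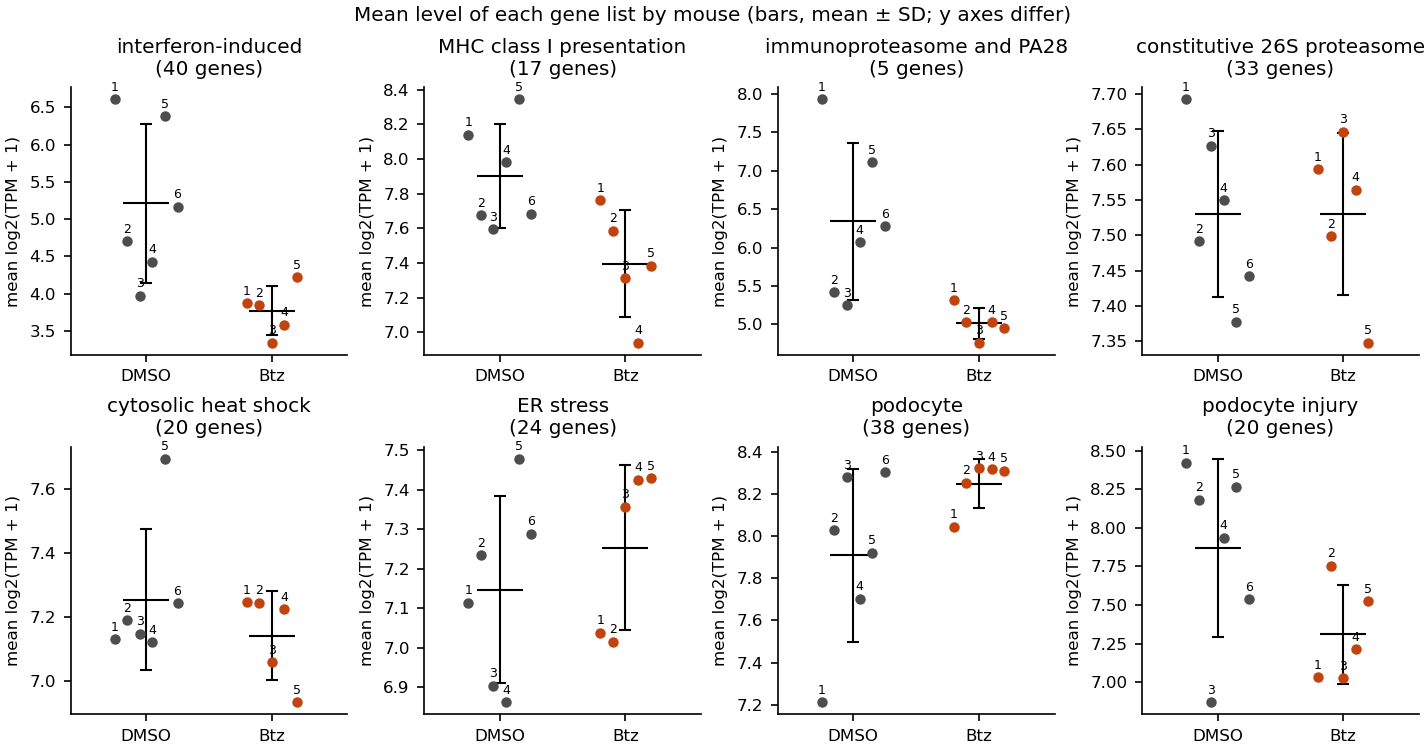
Mean of log2(TPM + 1) over the tested members of 8 gene lists in each mouse (y axes differ between panels and do not start at 0), with mean ± SD of DMSO mice 1 to 6 (grey) and Btz mice 1 to 5 (orange). The interferon-induced mean is 6.60 and 6.38 in DMSO mice 1 and 5 and between 3.97 and 5.17 in the other 4, against 3.34 to 4.22 in Btz mice; the constitutive proteasome means overlap.

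The spread between mice was wider under DMSO than under bortezomib for most genes. The SD of log2(TPM + 1) was larger among the 6 DMSO mice than among the 5 Btz mice for 7442 of 10814 genes (68.8%), with medians of 0.331 and 0.259. When the deviations from the group means were compared gene by gene with limma, 0 genes (0%) had an adjusted p under 0.05 (lowest, 0.215), while 992 had an unadjusted p under 0.05, 795 with the larger spread under DMSO. Pairs of DMSO mice correlated across genes with a Pearson r of 0.922 to 0.973 and pairs of Btz mice with 0.962 to 0.985. Of the 199 genes with an SD above 1 among DMSO mice, 83 had DMSO mouse 1 farthest from the mean, more than any other mouse, and without that mouse 6630 genes had the larger SD under DMSO.

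**Figure D4:**
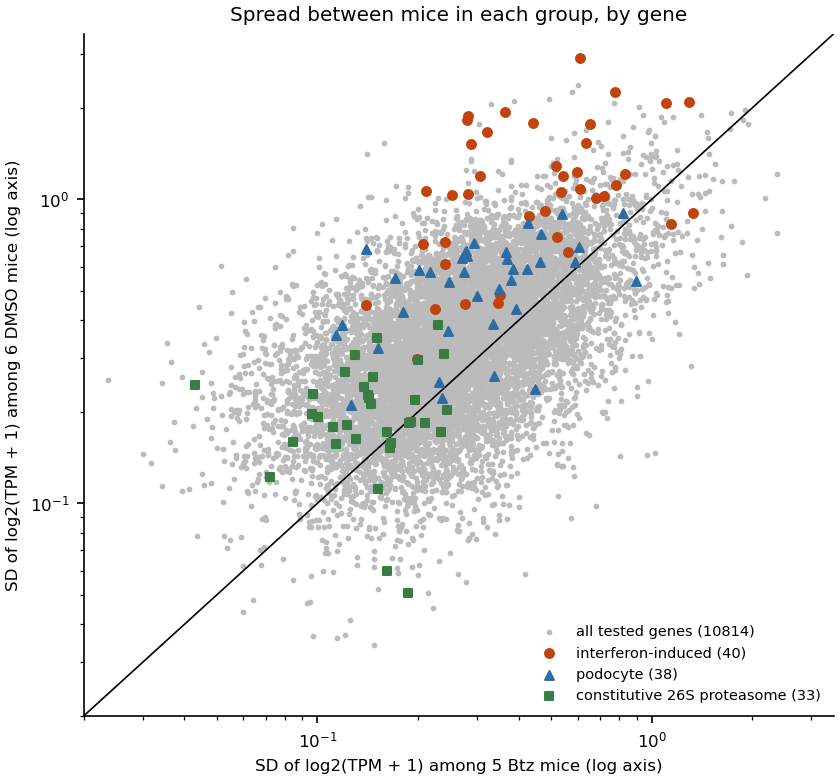
SD of log2(TPM + 1) among 5 Btz mice (x axis) and among 6 DMSO mice (y axis) for each of 10814 tested genes, both axes logarithmic, with the line of equality. Interferon-induced genes (circles) lie above the line for 38 of 40, podocyte genes (triangles) for 34 of 38 and constitutive proteasome genes (squares) for 23 of 33.

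The interferon-induced genes were among the most variable. Their median SD was 1.06 among DMSO mice and 0.46 among Btz mice, against 0.33 and 0.26 over all tested genes, and 38 of 40 had the larger SD under DMSO. Of the 10 genes with the largest SD under DMSO, Tgtp2, Gbp3, Rtp4 and Ifitm3 belonged to this list, and Cd274 and Il18bp followed the same mice. The other 4 were Cd200, Acta2, Klk1 and Akr1b7. Acta2, the smooth muscle actin, had 422, 72.6, 5.22, 52.8, 30.4 and 6.78 TPM in DMSO mice and 5.61 to 16.2 TPM (median, 13) in Btz mice, highest in DMSO mouse 1, where endothelial and mesangial markers were highest. Klk1, a kallikrein of the distal tubule, reached 61.4 TPM in DMSO mouse 4, which had the highest tubular markers, and Akr1b7, an aldose reductase relative, 64.1 TPM in DMSO mouse 1. The part of other cells in these values was not tested. DMSO mouse 5, second in interferon-induced genes, had an endothelial sum of 25.2 TPM and a leukocyte sum of 47.6 TPM, the former within the range of the Btz mice. Usp31, Ust, Dlg3 and Tes were among the genes with the smallest p for a wider spread under DMSO, with SDs under DMSO of 0.66, 0.50, 0.44 and 0.78 against 0.20, 0.11, 0.12 and 0.13 under bortezomib. The reverse was most marked for Gm16062, a long non-coding RNA, and for Cldn15, Adamts8, Rcan2 and Car14. The last 4 were low in Btz mice 3 and 4 alone: Rcan2, a calcineurin inhibitor, had 209, 266, 92.7, 85.7 and 284 TPM in Btz mice 1 to 5 and 182 to 312 TPM (median, 236) in DMSO mice.

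Cd200 had the largest fold change of all tested genes. It encodes a surface glycoprotein that restrains myeloid cells (chromosome 16, 45202470 to 45229594), and it was tested because every DMSO mouse, but not every Btz mouse, was above 1 TPM. DMSO mice 1 to 6 had 159, 112, 83.8, 83.1, 1.89 and 96.2 TPM and Btz mice 1 to 5 had 1.79, 0.411, 1.9, 1.32 and 0.502 TPM, so that 5 DMSO mice were above 83 TPM and DMSO mouse 5 was level with the Btz mice. The log2 difference was -4.78 ± 0.81 (adjusted p = 0.164; exact permutation p = 0.00649). Because Cd200 was tested through the DMSO mice alone, in which it was high, this difference and both p are a description only. Leaving out DMSO mouse 5, the 1 DMSO mouse level with the Btz mice, removes the overlap itself; the difference was then -5.64, a description with no test. Among the 7 mice with neighbouring mouse numbers, 5 Btz mice and only 2 DMSO mice (2 and 6), which do not include DMSO mouse 5 either, it was -5.65, likewise a description with no test. Under DMSO it ranged from 0.449 to 70.3 TPM (median, 2.81) in control podocytes and from 0.136 to 267 TPM (median, 0.984) in H77L podocytes, so high values occurred in some mice of those groups too. Pttg1, which encodes securin and was chosen after its values were seen, had a similar 2-level pattern that did not follow treatment, at 2.97, 4.96 and 2.1 TPM in DMSO mice 1 and 5 and Btz mouse 3 and between 49.9 and 71.7 TPM in the other 8.

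Genes with higher levels in Btz mice were of diverse kinds. Tnxb, the matrix glycoprotein tenascin-X, had 0.0905, 0.747, 1.22, 0.312, 0.65 and 0.618 TPM in DMSO mice and 2.11, 3.04, 2.02, 3.4 and 1.76 TPM in Btz mice, low but apart (1.12 ± 0.22; adjusted p = 0.00899 with all 35 mice). Lpl, the lipoprotein lipase that releases fatty acids from circulating lipoproteins, had 79.7, 126, 138, 108, 123 and 144 TPM under DMSO and 195, 180.5, 312, 341 and 170.4 TPM under bortezomib, again with no overlap (0.96 ± 0.21, adjusted p = 0.4; 0.0158 with all 35). DMSO-treated control podocytes had 191 to 244 TPM (median, 218) of Lpl, above all 6 DMSO mice with the C118F allele. Every Btz mouse was above every DMSO mouse for 31 tested genes (0.287%). Of these, 10 were tested because of the Btz mice alone, in which they were high; Tnxb entered in the same way, as did Gm45069, Gm14412 and Gm20732, so the separation and the p of these 4 are a description only. Of the 7 genes called higher with all 35 mice, the others named here were Mamdc2, a MAM domain protein (0.89 ± 0.22), Vps33b, which acts in vesicle tethering (0.56 ± 0.14), and Slc26a7, an anion exchanger (0.72 ± 0.17). Gm45069, a long non-coding RNA, was at 0 to 0.632 TPM in DMSO mice and 2.61, 10.8, 3.31, 1.98 and 3.16 TPM in Btz mice (1.99 ± 0.33). The predicted genes Gm14412 and Gm20732 were higher too (Gm14412, 1.23 ± 0.26, and Gm20732, 1.23 ± 0.28). Counting was not stated to use strand, so reads of an overlapping gene cannot be told apart for these 3 genes.

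Podocyte genes tended to be higher under bortezomib, with 1 mouse weighing heavily. Of 38 tested podocyte genes, 32 had a higher mean in Btz mice, where 62.6% of all tested genes did, 6 of them with an unadjusted p under 0.05 (background, 3.27%) and 0 past the adjusted threshold, and the median was 0.37. Without DMSO mouse 1 the median was 0.16, without DMSO mice 1 and 4 there was 1 gene with an unadjusted p under 0.05 (background, 1.91%), with Xist as a covariate there were 2, and among the 7 mice with neighbouring numbers, of which 2 were DMSO mice, the median was 0.01. The smallest p belonged to Col4a4, a chain of the type IV collagen network of the glomerular basement membrane (97.9, 171, 183, 116, 128 and 166 TPM in DMSO mice; 228, 203, 197, 195 and 229 TPM in Btz mice; 0.58 ± 0.16, adjusted p = 0.714). Every Btz mouse was above every DMSO mouse for this gene alone in the list, 1 of 38 (background, 0.287%). Myo1e, a motor protein of foot processes, was higher (0.88 ± 0.29), Thsd7a, a podocyte foot process protein and target of autoantibodies in membranous nephropathy, likewise (0.66 ± 0.24), and Rhpn1, a scaffold protein, too (1.14 ± 0.43). Nphs1, whose levels are given above, overlapped between the groups (log2 fold change, 0.13). The mean of the list, on the log2 scale, was 7.21 in DMSO mouse 1 and 7.70 in DMSO mouse 4, the lowest of the 11. In these 2 mice markers of most other cells were highest, and the part of other cells was not tested.

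Some genes of podocyte injury and of the matrix were lower in Btz mice. Of 20 tested injury genes, 15 had a lower mean (background, 37.4%), 7 with an unadjusted p under 0.05 (background, 2.59%), and the median was -0.32; without DMSO mice 1 and 4 the 7 became 1, as they did with Xist as a covariate. S100a6, a calcium-binding protein, had 1196, 994, 199.9, 836, 1045 and 534 TPM in DMSO mice and 291, 527, 151, 229.9 and 432 TPM in Btz mice (-1.22 ± 0.43, adjusted p = 0.798), with DMSO mouse 3 within the range of the Btz mice. DMSO mouse 3 was likewise the lowest DMSO mouse for Cdkn1a, the cell cycle inhibitor p21 (-1.24 ± 0.49), for Plaur, the urokinase receptor (-1.56 ± 0.62), and for Crct1, an epithelial gene (-2.06 ± 0.91). Ccnd1, which encodes cyclin D1, was lower (-0.93 ± 0.30). Lgals3, which encodes galectin-3 and was named by the study, had 493, 425, 56.6, 319, 580.1 and 204 TPM in DMSO mice and 66.1, 213, 85.8, 177 and 152 TPM in Btz mice (-1.12 ± 0.52, adjusted p = 0.813). Of 37 tested matrix genes 25 had a lower mean (background, 37.4%), 6 with an unadjusted p under 0.05 (background, 2.59%; 3 members with Xist as a covariate), and the median of -0.11 was near that of all genes. Mgp and Hspg2 were tested because of the DMSO mice alone, so their differences and the p of Mgp are a description only. Mgp, the matrix Gla protein that inhibits calcification, had 150.2, 17, 13.1, 37.5, 175 and 6.69 TPM in DMSO mice and 4.6, 9.77, 0.884, 1.19 and 5.06 TPM in Btz mice (-3.04 ± 0.78, adjusted p = 0.694); only DMSO mouse 6 overlapped with the Btz mice. Timp1, an inhibitor of metalloproteinases, was lower (-1.42 ± 0.37), as were the proteoglycan biglycan, encoded by Bgn (-1.52 ± 0.41), the proteoglycan perlecan, encoded by Hspg2 (-0.77 ± 0.26) and the aggrecanase Adamts4 (-1.86 ± 0.77). Among 28 actin and contractile genes the median was 0.01, and Actg1, cytoplasmic gamma-actin, was higher (0.39 ± 0.16).

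The 11 genes named by the study were chosen there on these libraries, so their direction is not independent evidence. Of these, 8 had a lower mean in Btz mice (background, 37.4%), and 0 passed the adjusted threshold. Irf7, Serping1, B2m and Lgals3 were the 4 lower with an unadjusted p under 0.05 (background, 2.59%). Irf7 was tested because of the DMSO mice alone. Among the 10 above 1 TPM in all 11 mice, 3 were lower at that p, where 222 of the 10170 such genes were. Serping1, the C1 inhibitor of the complement cascade, had 1669.5, 951, 515, 703, 1214 and 1133 TPM in DMSO mice and 350.0, 741, 347, 376 and 839.5 TPM in Btz mice (-0.97 ± 0.31, adjusted p = 0.784). Cd63, a tetraspanin of late endosomes, was at 2293 TPM in DMSO mouse 1 and between 939.9 and 1307 TPM in the other 5, a range that held 4 of the 5 Btz mice. Pak1 and Flna, which act on the actin cytoskeleton, overlapped, Flna with 269 to 669 TPM (median, 408) under DMSO and 414 to 619.9 TPM (median, 533) under bortezomib. The values of Mustn1, Cdkn1c, Cldn5 and Tagln overlapped over most of their range. In the rest of the complement list, C1ra was lower (-0.46 ± 0.20) and Cd55, which protects cells from complement, higher (0.49 ± 0.21).

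The stress pathways that proteasome inhibition is known to induce had medians near that of all genes. Among 20 cytosolic heat shock genes 8 had a higher and 12 a lower mean (background, 37.4% lower), with a median of -0.03. Hspb1, a small heat shock protein, was the 1 with an unadjusted p under 0.05 (-0.30 ± 0.13, adjusted p = 0.813). Over all tested genes, 5.86% had an unadjusted p under 0.05 in either direction. Hspa1b, an inducible HSP70 gene nearly identical to Hspa1a, varied from 132 to 754 TPM (median, 354) in DMSO mice and from 57.5 to 576 TPM (median, 217) in Btz mice. Cryab, alpha-B crystallin, had a log2 fold change of -0.33 ± 0.16. Among 24 genes of endoplasmic reticulum stress 19 had a higher mean in Btz mice, where 62.6% of all tested genes did, with a median of 0.17. Edem1, which directs misfolded glycoproteins to degradation (0.31 ± 0.14), and Sesn2, a target of ATF4 (-0.63 ± 0.27), were the 2 with an unadjusted p under 0.05 (background, 5.86%). Pdia4, a protein disulfide isomerase, had a log2 fold change of 0.26 ± 0.13, and Trib3, another target of ATF4, of -0.61 ± 0.31. Of 15 NRF2 and metallothionein genes the median was -0.05. The glutathione transferase Gsta4 (0.75 ± 0.31) was the 1 with an unadjusted p under 0.05 (background, 5.86%). Heme oxygenase, encoded by Hmox1, had a log2 fold change of -0.43 ± 0.21. Autophagy and lysosome genes had a median of -0.01 over 24 genes, and cathepsin L (Ctsl) was lower (-0.48 ± 0.22). None of the genes in these 4 lists had an adjusted p under 0.05, which does not show that their levels were equal.

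Immediate early genes, which respond within minutes to stimulation, differed mainly in DMSO mouse 1. Over 24 genes the median was 0.17, and the list mean was 7.24 in DMSO mouse 1 and between 7.83 and 8.90 in the other 10 mice. Fosb, a subunit of AP-1, was at 117.8 TPM in DMSO mouse 1 and between 1139 and 2056 TPM in the other 5, and Egr2 at 6.72 TPM against 97.9 to 231 TPM. Atf3, a stress-induced factor, had 298, 2406, 3455, 931, 6000.5 and 5907 TPM in DMSO mice. Myc, tested because of the DMSO mice alone, was lower in Btz mice (-1.55 ± 0.63), as was the AP-1 subunit Fosl1 (-0.98 ± 0.39). Of 14 tested NF-kappaB and chemokine genes 10 had a lower mean (background, 37.4%), with a median of -0.11. Cxcl16, a membrane-bound chemokine, had 10.05, 1.24, 1.28, 1.73, 6.37 and 1.31 TPM in DMSO mice and 0.877, 0.678, 0.434, 0.674 and 0.552 TPM in Btz mice. All DMSO values were above the minimum of 1 TPM and all Btz values below it, so the gene was tested because of the DMSO mice alone and its separation is a description only. Of 17 genes of the p53 pathway and the BCL2 family 12 had a lower mean (background, 37.4%), 0 with an unadjusted p under 0.05. The 8 tested mitochondrially encoded genes all had a lower mean (background, 37.4%), with a median of -0.30 and 0 with an unadjusted p under 0.05, and their summed TPM was highest in DMSO mice 1 and 4 (38475 and 26819.6).

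The response to bortezomib was set beside those of the other genotypes, each against its own 6 DMSO mice. For the 40 interferon-induced genes the median log2 fold change was -1.50 in C118F, -0.52 in H77L and -0.04 in control podocytes, and 38 of 40 had a lower mean in Btz mice in H77L, where 49.8% of all these genes did, and 22 of 40 in controls, where 48% did. A test of the difference of responses called 0 of 11046 genes (0%) between C118F and H77L (lowest adjusted p, 0.574) and 0 of 11197 (0%) between C118F and controls (lowest, 0.471). At an unadjusted p under 0.05 the C118F response was lower for 11 of the 40 interferon-induced genes than in H77L, against 2.97% of all genes in that test, and for 26 of 40 than in controls, against 1.95%. Among C118F mice, 9 of the 40 were above 1 TPM throughout in the DMSO group alone, so these counts are a description only. Without adjustment, 840 and 560 genes in all were under 0.05. Lgals3bp had the smallest p of the test against controls, with responses of -1.90 in C118F and -0.04 in controls, a difference of -1.86 ± 0.38 (SE) (adjusted p = 0.471). In H77L it was lower as well (-1.34), and the difference of -0.56 ± 0.54 (SE) was about as large as its SE. Isg15 under DMSO had 10.03 to 18.8 TPM (median, 15.9) in controls and 10.1 to 55.6 TPM (median, 18.5) in H77L. Tnxb, which among C118F mice was above 1 TPM throughout in the Btz group alone, had responses of 1.12 in C118F and -0.30 in H77L (adjusted p of the difference, 0.574). Heat shock genes had a median response of -0.03 in C118F and 0.30 in H77L; Dnajb1, an HSP40 cochaperone chosen after its values were seen, had responses of -0.34 and 2.11, and the test of that difference gave an adjusted p of 0.587.

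**Figure D5:**
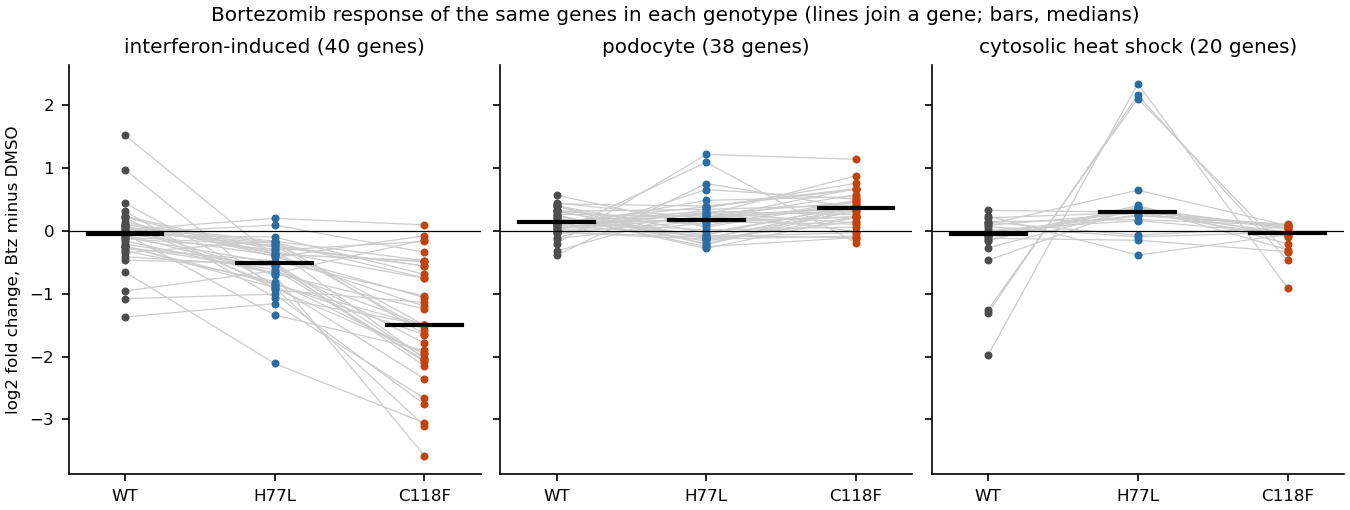
Log2 fold change (Btz minus DMSO, y axis) of the same genes in control (WT), H77L and C118F podocytes for 3 lists, with lines joining a gene and black bars at the medians. The interferon-induced medians are -0.04, -0.52 and -1.50 from left to right, the podocyte medians 0.14, 0.17 and 0.37, and the heat shock medians -0.05, 0.30 and -0.03; 0 genes passed the test of the difference.

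Mouse numbers stood in place of a date, which the labels do not give. DMSO mice 1, 3, 4 and 5 had no Btz mouse of the C118F genotype within 100 of their numbers, and the 4 included both mice with the highest interferon-induced means. Bortezomib-treated mice of the other genotypes lay within 100 of DMSO mouse 1 but not of DMSO mice 3, 4 and 5, for which number and treatment cannot be told apart. Among the 7 mice with neighbouring numbers, fitted with the run of numbers as a block and with 1 DMSO mouse in each run, the median of the interferon-induced genes was -0.98, and 30 members were lower with an unadjusted p under 0.05, against 5.72% of the 11258 genes of that fit. In all 2 genes (0.0178%) were called, Cd200 and Alkbh5 (-1.15 on the log2 scale, adjusted p = 0.0201), an RNA demethylase named after its values were seen. The call of Cd200 is a description only, since DMSO mouse 5, level with the Btz mice for this gene, was not in the fit. Without DMSO mouse 1 the interferon-induced median was -1.13, and without Btz mouse 2, the shallowest library, -1.50. Without DMSO mice 1 and 4, in which markers of most other cells were highest, it was -1.27. In that fit 28 members were lower with an unadjusted p under 0.05 (background, 2.55%). The filter of 1 TPM was applied anew to the mice of each fit, so the members tested need not be the same 40. Members can enter through the DMSO mice kept, in which they were high, so the counts of 30 and 28 are not comparable with the 27 of the main fit.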

How the data were processed

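The authors deposited 1 table of TPM values for 33292 genes in 35 mice. Per the labels and the study's methods, reads of poly(A) RNA were trimmed with Trim Galore 0.6.7, aligned to GRCm39 with STAR and counted with featureCounts 1.6.3. The step from counts to TPM and the use of strand are not given in the sources used here. TPM values sum to a constant in each mouse, so a rise of abundant genes lowers all others.

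Log2(TPM + 1) of the 10814 genes above 1 TPM in every mouse of a group was fitted with limma 3.58.1 (lmFit, eBayes with trend) in R 4.3.3 on the 11 mice, with Benjamini-Hochberg adjustment over all tested genes and a threshold of 0.05. Every adjusted p is from limma, and "with all 35 mice" marks the fit that took its error from 6 groups and so assumes an equal spread in them. The spread was tested with limma without the trend, on absolute deviations from the group mean scaled for group size. Responses of genotypes were tested with the trend and an interaction term on 11046 genes (H77L) and 11197 genes (WT). Single genes were also compared with two-sided exact permutation tests. Other scripts used Python 3.11.15, and the limma fit between Btz and DMSO mice was also run on simulated data. Names and positions came from GENCODE vM39, which held 32776 of the identifiers. No column was left unused.

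The members, the gene lists and the tests were chosen with earlier results of these data known. Genes were named by rule: Lmx1b, the 11 genes named by the study, the 5 smallest p in each direction, the 10 largest SDs among DMSO mice, the 5 smallest p of the spread test in each direction, up to 4 smallest p and 2 largest SDs of each list, and up to 5 in each direction called with all 35 mice. Irf1, Irf9, Stat2, Ifit1, Ifit3, Igtp, Irgm2, Pttg1, Dnajb1, Nphs1, Podxl, Wt1 and Synpo were added after their values were seen. Some items that the rule names are not reported here. Alternatives were another pseudocount (0.1), other filters (none, or above 5 TPM), other scalings, fits and covariates, mice with neighbouring numbers, and leaving out mice.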

Additional observations from a re-analysis of the deposited data

Results flagged for a closer look

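A value was picked out where its distance to the nearest other mouse of its group was large against the range of the group (Dixon's criterion at 95%). Of 266 groups of values tested, 16 met it, and chance alone gives about 13, or 1 in 20. DMSO mouse 1 accounted for 6 of them. Its levels of Uchl1 (17.96 TPM) and Cd63 (2293 TPM) were above those of the other DMSO mice, and its levels of Fosb (117.8 TPM), Egr2 (6.72 TPM) and Nphs1 (113 TPM) below them, as was its mean of immediate early genes (7.24 on the log2 scale). This mouse also had the highest sums of endothelial, leukocyte and mesangial markers, whose part in these values was not tested.

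DMSO mouse 5 stood apart with 1.89 TPM of Cd200 and with a mean of 7.70 on the log2 scale for cytosolic heat shock genes, the highest of the DMSO mice. DMSO mouse 6 had the highest Slc26a7 of its group at 7.09 TPM. Among Btz mice, mouse 1 had the lowest Lmx1b (67.5 TPM), the highest Psme2 (211 TPM) and the lowest mean of podocyte genes (8.05 on the log2 scale). Btz mouse 2, the shallowest library, had the highest Gm45069 (10.8 TPM). Btz mouse 3 had the lowest Pttg1 (2.10 TPM) and the highest Synpo (836 TPM), and Btz mouse 5 the highest Stat2 (18.3 TPM).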

How the results depend on the processing

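The count of 0 genes called became 31 with the error of all 35 mice and 2 among the mice with neighbouring numbers, and was 0 to 1 when 1 mouse was left out (1, Cd200, without DMSO mouse 5). Cd200 was also called among the mice with neighbouring numbers. Both settings lack DMSO mouse 5, which was level with the Btz mice for Cd200, so these calls of Cd200 are a description only. The spread test called 1 gene after quantile normalization and 0 to 3 with 1 mouse left out, 3 of them without Btz mouse 1. The median of the interferon-induced genes was lower than that of all genes under every alternative run, from -1.77 without DMSO mouse 3 to -0.98 among mice with neighbouring numbers. With Xist as a covariate, members at an unadjusted p under 0.05 numbered 4 in place of 8 for MHC class I, 2 in place of 6 for podocyte genes, 3 in place of 6 for matrix genes and 1 in place of 7 for injury genes. Among mice with neighbouring numbers the podocyte median was 0.0075 with 1 member, the matrix median -0.39 with 11 members, and the median of all genes -0.042. Without DMSO mice 1 and 4, a setting chosen after seeing the data for their markers of other cells, podocyte and injury genes had 1 member each. Leaving out 1 mouse gave 3 (without Btz mouse 4) to 14 (without DMSO mouse 6) podocyte and 2 (without Btz mouse 3) to 9 (without Btz mouse 2) injury members. Lmx1b changed sign among mice with neighbouring numbers (-0.31) and without DMSO mice 1 and 4 (-0.033). Of 1683 fold changes of 74 genes under the alternatives, these 2 had the opposite sign and 1681 the same. The cause of these changes was not tested. No paired analysis was possible because the mouse numbers of the 2 groups are not shared, and the fit with neighbouring numbers used runs of numbers as a block instead. TPM values hold no read counts, so the counting error of low genes is unknown.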
